A study of Mus musculus with 8 samples.

Results

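The adipocyte genes followed here were Adipoq, Lep, Cfd, Retn, Plin1, Plin4, Cidec, Fabp4, Pparg and Slc2a4, a fixed set of 10 genes that mark the fat cells of the mammary fat pad. Their members were the array probes whose RefSeq accession belongs to one of these symbols. All 10 were found, on 13 probes, among 18749 genes with a named probe and 14137 genes tested. RNA of whole mammary glands was measured on lactation day 1 in wild-type (WT) dams (4 arrays) and Th-POK-deficient (KO) dams (4 arrays), all C57/Bl6 females. Th-POK is the zinc finger factor encoded by Zbtb7b, and the sources name no promoter or Cre that limits its loss to one cell type, so epithelium, fat and immune cells of the KO dams are all taken to lack it. The age of the dams on the arrays is not given in the sources used here. Zbtb7b was well above background on all 4 WT arrays and on 0 of 4 KO arrays, at least 81.5-fold lower in KO, so the labels held. The genotypes were hybridised on separate slides, scanned separately, so genotype and slide cannot be told apart in any value below.

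Mammary epithelium grows into a pad of white fat. Adipocytes store triacylglycerol in a single large droplet, take up glucose and fatty acids under insulin, and secrete hormones called adipokines. The nuclear receptor PPARG, with its partner RXR and with C/EBP factors, sets up and maintains this programme, and most of the other 9 genes are known targets of it. During pregnancy and lactation the epithelium fills the pad and the adipocytes shrink. The arrays measured RNA of the whole gland, so fewer adipocytes and less RNA per adipocyte cannot be told apart.

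Start regions are shown for the pair of genes that passed the test, Cfd and Plin1, and for Lep, whose mean moved the other way. RefSeq (GRCm38.p6) gave start regions for 8 of the 10 genes, in 11 windows, and the 250 bases before the start are used. Capitals mark matches to TTNNGCAA, a loose form of the sequence that C/EBP factors bind, searched on both strands.
Cfd, chr10:79890603-79890852, plus strand: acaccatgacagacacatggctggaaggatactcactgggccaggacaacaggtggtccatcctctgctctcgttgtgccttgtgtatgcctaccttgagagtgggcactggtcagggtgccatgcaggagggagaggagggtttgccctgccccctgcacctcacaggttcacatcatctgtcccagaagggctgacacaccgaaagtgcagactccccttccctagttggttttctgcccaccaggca
Plin1, chr7:79732777-79733026, minus strand: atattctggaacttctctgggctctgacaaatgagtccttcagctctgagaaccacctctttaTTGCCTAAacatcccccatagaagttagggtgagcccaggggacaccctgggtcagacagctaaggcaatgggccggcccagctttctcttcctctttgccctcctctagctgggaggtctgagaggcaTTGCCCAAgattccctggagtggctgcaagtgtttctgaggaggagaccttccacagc
Lep, chr6:29059971-29060220, plus strand: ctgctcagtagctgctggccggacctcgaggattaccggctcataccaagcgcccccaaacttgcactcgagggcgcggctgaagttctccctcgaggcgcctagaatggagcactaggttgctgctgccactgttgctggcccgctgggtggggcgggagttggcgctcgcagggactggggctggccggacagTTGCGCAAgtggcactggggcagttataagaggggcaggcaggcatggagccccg
The Plin1 window held 2 matches, and the Lep window held 1 stretch that reads the same on both strands. The Cfd window held none. Over the 11 windows 4 held TTNNGCAA, in Lep, Cidec, Pparg and Plin1, against 9.56% of 32851 windows of all genes. The direct repeat with a spacer of 1 base (DR1), which the PPARG and RXR pair binds, was searched on both strands with up to 2 mismatches and was found in 0 of the 11 windows, against 3.24% of all windows. TATAAA was found in 1 of the 11, a Pparg window, against 12.4% of all. These are matches of letters in a short window and show neither binding nor its absence.

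All 10 adipocyte genes were well above background on all 8 arrays. Signals of different probes are not comparable as levels, so each gene is compared only with itself. In KO glands 8 of the 10 had a higher mean and 2, Lep and Pparg, a lower one. The median difference of the 10 was 0.54 on the log2 scale, beside -0.02 over all 14137 genes, of which 47.6% had a higher mean in KO. Cfd and Plin1 rose (limma, adjusted p under 0.05), 2 of 10 genes, beside 16.5% of all genes called in either direction and 7.53% called higher. The same pair had KO arrays all above the WT arrays, beside 11.1% of all genes (24.1% with either genotype above).

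**Figure D1:**
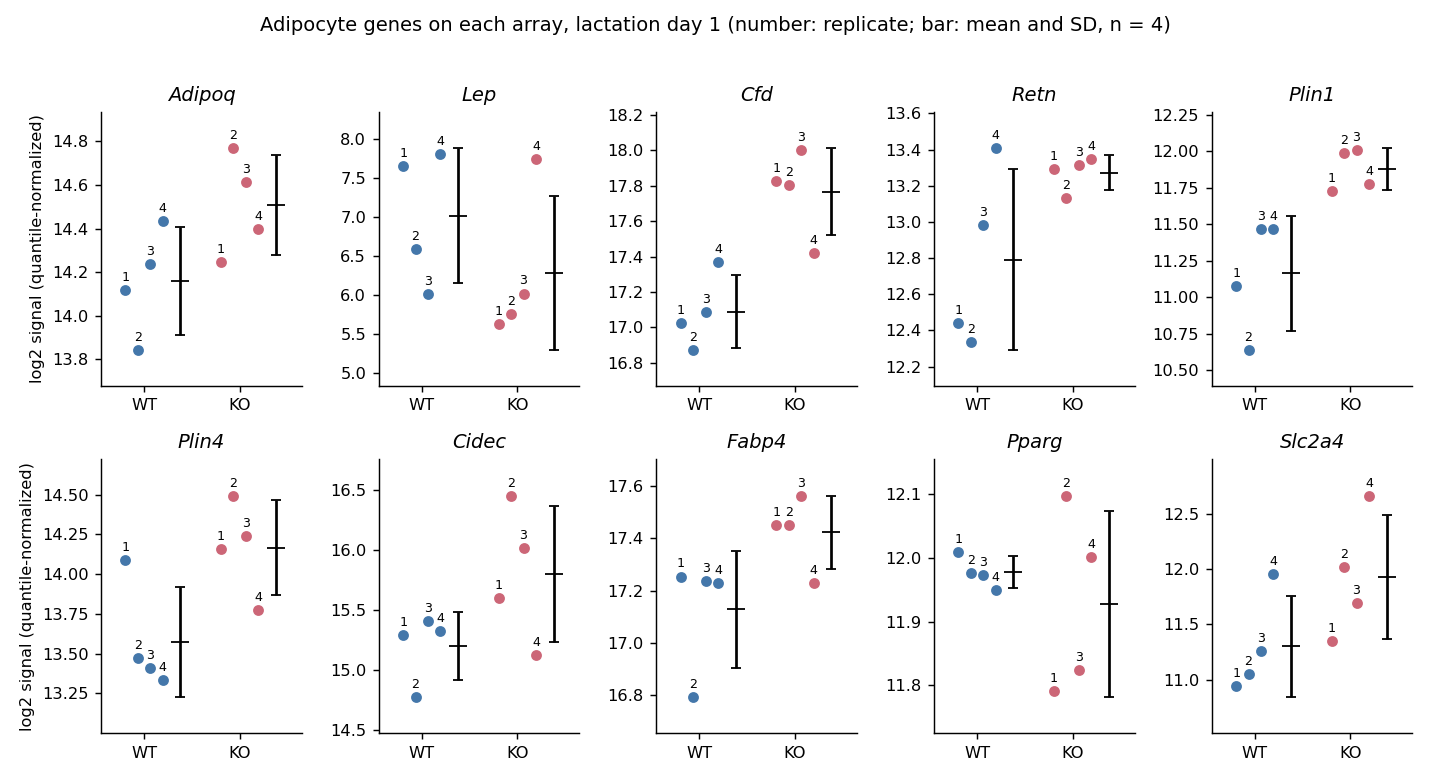
Log2 quantile-normalized signal of the 10 adipocyte genes on each array, with the replicate number beside each point, WT in blue and KO in red, and the mean and SD of each genotype (n = 4) as bars. Cfd and Plin1 are the genes whose genotypes do not overlap, and KO replicate 4 stands far above the other KO arrays for Lep, at 7.75.

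Of the adipokines, Cfd rose, Adipoq and Retn had higher means that did not pass the test, and Lep had a lower one. Cfd encodes adipsin, the serine protease complement factor D, which fat secretes in quantity. Its log2 signal was 17.03, 16.87, 17.09 and 17.37 on WT arrays 1 to 4 and 17.83, 17.81, 18.00 and 17.42 on KO arrays 1 to 4. The genotypes did not overlap, although KO replicate 4 lay only just above WT replicate 4. The difference was 0.68 (SE 0.16, 95% interval 0.32 to 1.03), or 1.60-fold, with an adjusted p of 0.0268. It shrank to 0.44 (adjusted p = 0.0537) when arrays were scaled to their 75th percentile. The call was also lost with the position on the slide as a block (adjusted p = 0.0760) and by the methods' t-test (adjusted p = 0.0527). It was lost too without WT replicate 2 (adjusted p = 0.0738), WT replicate 3 (0.0636), KO replicate 1 (0.0679), KO replicate 2 (0.0648) or KO replicate 3 (0.0774), while the difference stayed between 0.60 and 0.79 in all 8 such fits.

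Adipoq encodes adiponectin, the adipokine that raises insulin sensitivity. The log2 signal of Adipoq was 14.12, 13.84, 14.24 and 14.43 in WT and 14.25, 14.77, 14.61 and 14.40 in KO. WT replicate 4 lay above 2 KO arrays, and the difference of 0.35 (SE 0.16, 95% interval -0.02 to 0.72) had an adjusted p of 0.158. It fell to 0.18 under 75th percentile scaling.

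Retn encodes resistin, which opposes insulin in mice. For Retn the log2 signal was 12.44, 12.34, 12.98 and 13.41 in WT and 13.29, 13.13, 13.31 and 13.35 in KO. The KO arrays lay close together (SD 0.10, n = 4) and the WT arrays were spread (SD 0.50, n = 4), with WT replicate 4 above every KO array. The difference was 0.48 (SE 0.23, adjusted p = 0.163), and a further probe of the gene gave 0.49. It passed the test, at 0.68 and an adjusted p of 0.0417, only in the fit without WT replicate 4.

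Lep encodes leptin, the hormone that reports fat stores to the brain. It varied most among the 10 genes, with a log2 signal of 7.66, 6.59, 6.02 and 7.81 in WT and 5.63, 5.76, 6.02 and 7.75 in KO. KO replicates 1 and 2 lay below every WT array, KO replicate 3 was level with WT replicate 3, and KO replicate 4 lay with the high WT arrays. The difference of -0.73 (SE 0.55, 95% interval -2.0 to 0.53) had an adjusted p of 0.370. Without KO replicate 4 it was -1.22 (adjusted p = 0.0859), and it was -0.47 (adjusted p = 0.607) without WT replicate 4.

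Of the genes that coat the lipid droplet, Plin1 rose, and Plin4 and Cidec had higher means that did not pass the test. Plin1 encodes perilipin 1, the coat protein that guards the adipocyte droplet against lipases. Its log2 signal was 11.08, 10.64, 11.47 and 11.47 in WT and 11.73, 11.99, 12.01 and 11.78 in KO. Every KO array lay above every WT array, and WT replicate 2 was the lowest. The difference was 0.71 (SE 0.19, 95% interval 0.27 to 1.15), or 1.64-fold, with an adjusted p of 0.0403. The call was lost with no filter on dim probes (adjusted p = 0.05995), with the position on the slide as a block (0.0829) and by the methods' t-test (0.0786). The adjusted p was 0.0403 without WT replicate 4 and between 0.0545 and 0.106 without any other array, with differences from 0.54 to 0.81.

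Plin4 encodes perilipin 4, which coats small new droplets. WT arrays gave Plin4 a log2 signal of 14.09, 13.47, 13.41 and 13.33 and KO arrays of 14.16, 14.50, 14.24 and 13.77. WT replicate 1 lay above KO replicate 4, and the other WT arrays lay below all KO arrays. The difference was 0.59 (SE 0.21, 95% interval 0.12 to 1.07, adjusted p = 0.0803). It passed the test without WT replicate 1 (0.76, adjusted p = 0.0244) or without KO replicate 4 (0.72, adjusted p = 0.0490).

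Cidec encodes the CIDE protein that fuses droplets into the single large one of white fat. Its log2 signal was 15.29, 14.77, 15.40 and 15.32 in WT and 15.59, 16.45, 16.01 and 15.13 in KO. KO replicate 4 lay below 3 of the WT arrays while the other KO arrays lay above all of them. The difference was 0.60 (SE 0.28, 95% interval -0.04 to 1.23, adjusted p = 0.156).

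Fabp4, the fatty acid carrier of adipocytes that capillary endothelium also makes, was measured by 3 probes. The brightest gave a log2 signal of 17.25, 16.80, 17.24 and 17.23 in WT and 17.45, 17.45, 17.56 and 17.23 in KO. WT replicate 2 stood below the rest and KO replicate 4 lay with the WT arrays. The difference was 0.29 (SE 0.14, adjusted p = 0.154), and the other probes gave 0.37 and 0.29. Under 75th percentile scaling it was 0.08.

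Pparg, the receptor itself, differed least of the 10. On a log2 scale it read 12.01, 11.98, 11.97 and 11.95 in WT and 11.79, 12.10, 11.82 and 12.00 in KO. The WT arrays spanned less than the KO arrays, and the genotypes overlapped. The difference was -0.05 (SE 0.10, 95% interval -0.28 to 0.18, adjusted p = 0.754). It turned to 0.07 when KO replicates 1 and 3 were both left out.

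Slc2a4 encodes GLUT4, the insulin-responsive glucose transporter of fat and muscle. On a log2 scale its signal was 10.94, 11.05, 11.26 and 11.96 in WT and 11.35, 12.02, 11.69 and 12.67 in KO. The genotypes overlapped, but within each replicate number the KO array was higher, by 0.41 to 0.97. Without the replicate block the difference of 0.63 (SE 0.31) had an adjusted p of 0.181. With the replicate number as a block it had an SE of 0.13 and an adjusted p of 0.0313, beside 19.5% of all genes called in that fit and 8.75% called higher.

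**Figure D2:**
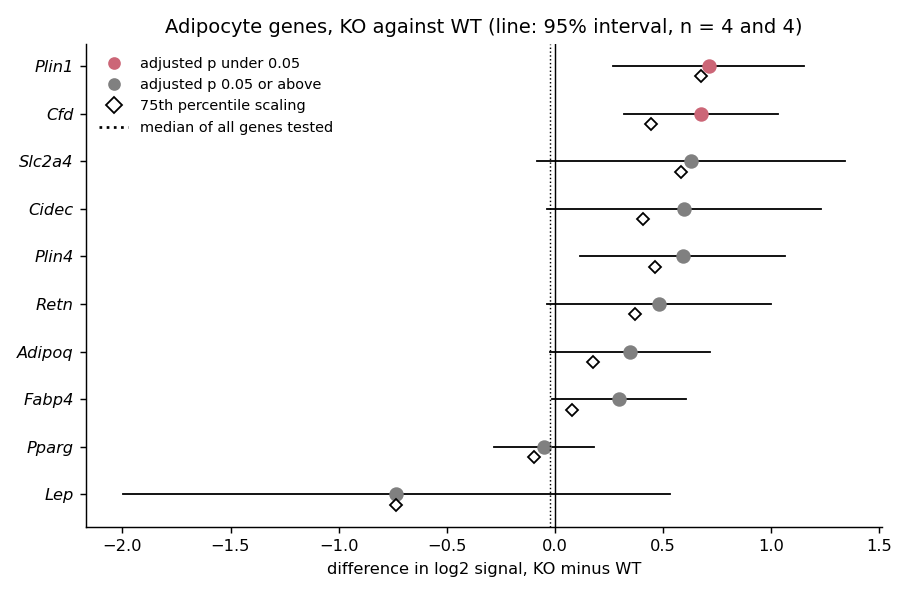
Difference in log2 signal, KO minus WT, for the 10 adipocyte genes, with the 95% interval of the limma fit (n = 4 and 4) as lines, genes called in red, and the same difference under 75th percentile scaling as open diamonds. Plin1 (0.71) and Cfd (0.68) are the genes called, and the diamonds lie nearer 0 for the brightest genes, such as Fabp4 at 0.08.

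The 10 genes did not move as 1 block from array to array. After each gene was centred within its genotype, WT replicate 2 was the lowest WT array for 6 of the 10 and WT replicate 4 the highest for 6. Among KO arrays replicate 1 was the lowest for 5 genes and replicate 4 for 4, and replicate 2 was the highest for 4. The median deviation of the 10 was -0.32 on WT replicate 2 and 0.28 on WT replicate 4, and between -0.14 and 0.10 on the KO arrays. Each gene was set against the mean of the other 9 over the 8 centred arrays, as a description. Adipoq (r = 0.84) and Plin1 (r = 0.71) lay closest to the others, and Lep (r = 0.05) and Plin4 (r = -0.14) farthest from them. Of the 45 pairs of genes 31 had an r above 0, with a median of 0.24, and all points share the same 8 RNA samples.

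**Figure D3:**
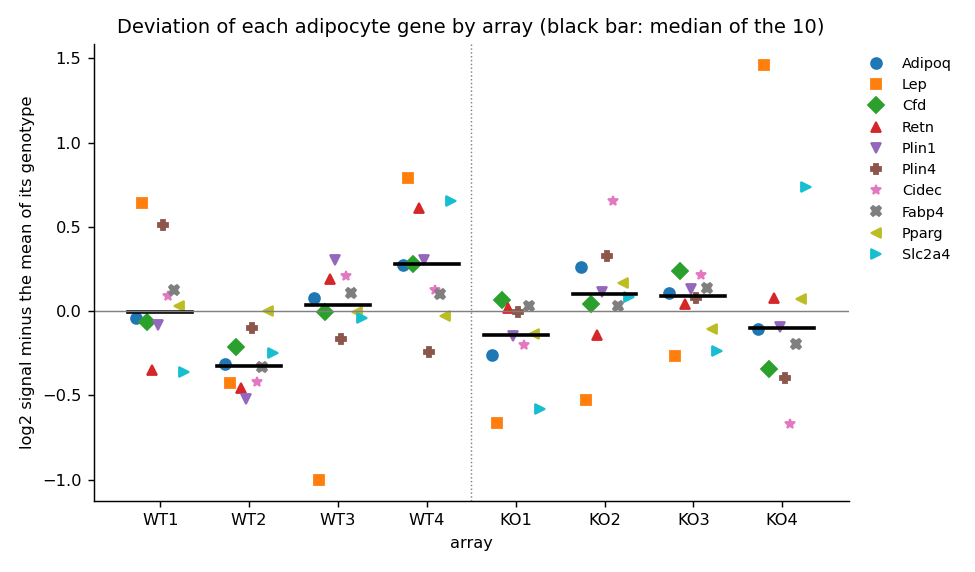
Log2 signal of each of the 10 adipocyte genes minus the mean of its own genotype, by array, with the median of the 10 as a black bar. WT replicate 2 lies low (median -0.32) and WT replicate 4 high (0.28), and Lep on KO replicate 4 lies 1.46 above its KO mean.

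Outside the marker lists, the genes whose centred pattern over the 8 arrays was most like the mean of the 10 were Txndc16 (r = 0.98), Lats2, Efcab2, Srrt, Card10, Zfp30, Fbxl8, Proca1, Zbtb10 and Kif1b (r = 0.96). They were picked from 14137 genes over 8 points. Of the other adipocyte genes the nearest, named after its values were seen, was Rbp4 (r = 0.83), the carrier of retinol.

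Other genes of adipocytes did not share one direction. Of 40 listed genes 38 had a probe and 37 were tested. Of these 2 rose and 3 fell, beside 7.53% and 8.96% of all genes, and the median difference was 0.03. G0s2, which encodes the inhibitor of the lipase ATGL, fell by 1.91 (SE 0.28, adjusted p = 0.00951). Its log2 signal was 14.31 to 15.07 on the WT arrays and 12.04 to 13.38 on the KO arrays, which did not overlap, and it stayed called whichever array was left out (adjusted p 0.00772 to 0.0321). Orm1, an acute phase protein, fell by 1.62 (adjusted p = 0.0320). Sncg, synuclein gamma, fell by 0.72 (adjusted p = 0.0460), and with the replicate block its adjusted p was 0.0624. That fit called 2 higher and 5 lower of the 37, adding Gpd1 (-0.54, adjusted p = 0.0290), Klf15 (-0.71, adjusted p = 0.0305) and Thrsp (-1.09, adjusted p = 0.0132), each lower in KO within all 4 replicate numbers. Dgat2, an enzyme of the last step of triacylglycerol synthesis that epithelium uses too, rose by 1.29 (SE 0.36, adjusted p = 0.0429). Rarres2, which encodes the adipokine chemerin, rose by 0.54 (SE 0.15, adjusted p = 0.0411), and its genotypes did not overlap. These calls rest on the brightest probe of a gene, and the dimmer probes here were named after their values were seen. By limma over all probes kept, dimmer Acsl1 probes fell by 0.95 and 0.81 (adjusted p = 0.0363 and 0.0469), beside -0.48 on its brightest. A dimmer probe also fell for Gpd1 (-0.92, adjusted p = 0.0395) and Cavin1 (-0.52, adjusted p = 0.0309, brightest -0.08), and rose for Dgat2 (1.40, adjusted p = 0.0349). Between 1 and 6 of the 37 were called when single arrays were left out, with 6 without WT replicate 1, 5 without WT replicate 4, 3 without KO replicate 1, 2 without WT replicate 2 or KO replicate 4, and 1 without WT replicate 3, KO replicate 2 or KO replicate 3.

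**Figure D4:**
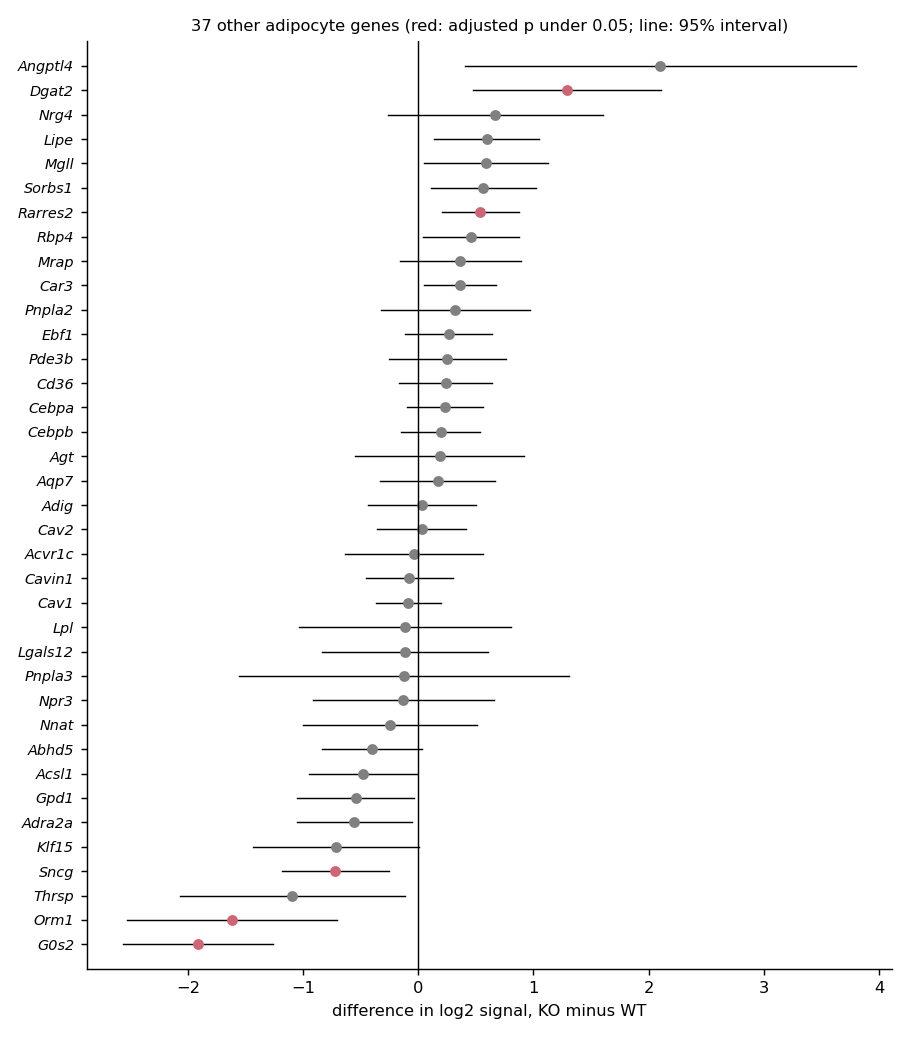
Difference in log2 signal, KO minus WT, of the 37 other adipocyte genes tested, with 95% intervals (n = 4 and 4) and called genes in red. The genes spread to both sides of 0, from -1.91 to 2.10, and 5 are called.

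Of 4 relatives of the droplet genes tested 1 was called. Plin5, the perilipin of oxidative tissues, rose by 1.43 (SE 0.28, adjusted p = 0.0183), from a log2 signal of 7.88 to 8.87 on WT arrays to 9.63 to 10.65 on KO arrays. Its adjusted p was 0.0530 without KO replicate 3. Plin2 and Plin3, which coat droplets in the secretory epithelium, differed by 0.19 (adjusted p = 0.446) and 0.33 (adjusted p = 0.158). Cidea, the CIDE protein of brown fat and of milk lipid secretion, differed by -0.28 (adjusted p = 0.467), and Cideb did not pass the filter on dim probes.

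Of the carrier's relatives, Fabp3, the main FABP of the secretory epithelium, differed by -0.07 (adjusted p = 0.720) and Fabp2 by -0.18 (adjusted p = 0.559). Fabp1, Fabp6 and Fabp7 did not pass the filter on dim probes. Of 8 other glucose transporters tested 1 was called. Slc2a1, the GLUT1 transporter of the epithelium, fell by 0.89 (SE 0.15, adjusted p = 0.0140). On their brightest probes Slc2a9, Slc2a12, Slc2a5, Slc2a13, Slc2a3, Slc2a10 and Slc2a8 differed by -0.45 to 1.58, with adjusted p of 0.208 or more. A dimmer Slc2a8 probe fell by 0.40 (limma over all probes kept, adjusted p = 0.0366), from 7.12 to 7.32 on WT arrays to 6.74 to 7.01 on KO arrays.

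Of 11 partners of PPARG 1 was called. Ppargc1a, the coactivator PGC-1alpha of mitochondrial and brown fat genes, rose by 1.26 (SE 0.36, adjusted p = 0.0453), and over the mean of its probes the difference was 0.91 with an adjusted p of 0.0647. The call was also lost with no filter (0.0698), the position block (0.0574), the methods' t-test (0.0985) and without any single array other than WT replicate 4 (0.0631 to 0.109). Ppard differed by -0.37 (adjusted p = 0.0664). The partners Rxra, Rxrb, Rxrg, Ncoa1, Ncoa2, Ncor1, Med1, Ppargc1b and Ppara had adjusted p of 0.331 or more on their brightest probes. A dimmer Rxra probe fell by 0.43 (limma over all probes kept, adjusted p = 0.0363). Its log2 signal was 7.14 to 7.38 on WT arrays and 6.66 to 6.99 on KO arrays. The receptors of adiponectin Adipor1, Adipor2 and Cdh13 differed by 0.21, 0.01 and -0.01, with adjusted p of 0.301 or more. The sign of the Adipor2 difference turned under 75th percentile scaling (-0.16). The leptin receptor Lepr was well above background on 0 of 4 WT and 3 of 4 KO arrays and was not tested.

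Signs of other fat and of other tissues differed between arrays. Ucp1, the uncoupling protein that defines brown fat, had a log2 signal of 3.02, 1.74, 11.002 and 11.09 in WT and 9.0, 12.85, 11.43 and 5.80 in KO, and was well above background on 2 of 4 WT arrays and 4 of 4 KO arrays. The mean log2 signal of 11 brown and beige genes ran from 7.71 to 9.80 in WT and from 8.88 to 9.90 in KO, with 1 of 11, Ppargc1a, called. Pank1 (-0.99, adjusted p = 0.111) had an adjusted p of 0.0191 with the replicate block. Cox8b differed by 1.95 (adjusted p = 0.110), lowest on WT replicate 1 and WT replicate 2. Zic1, Tmem26 and Tnfrsf9 did not pass the filter. Genes of skeletal muscle, which expresses Slc2a4 as well, stood high on KO replicate 1 (mean 9.04) and KO replicate 3 (9.80) against 6.96 to 7.40 on the other 6 arrays. Of these 8 genes 1 was called, Tnnt3, whose brightest probe fell by 1.28 (adjusted p = 0.0367, and 0.0536 with the replicate block). A dimmer Tnnt3 probe that did not pass the filter ran the other way, at 8.45 and 9.65 on KO replicates 1 and 3 against 3.18 to 3.97 in WT, so the direction of Tnnt3 is not settled. Ckm, Myh4, Actn3 and Pvalb did not pass the filter, as each was well above background on only 2 arrays. All of them were highest on KO replicates 1 and 3. The brightest Myh4 probe read 10.2 and 11.7 there, against 1.4 to 3.2 on the other 6 arrays. Slc2a4 was lower on those KO arrays than on the other KO arrays. With both left out, the difference was 1.04 for Slc2a4 (adjusted p = 0.171), 0.72 for Plin1 and 0.53 for Cfd, and 0 of the 10 genes passed the test with 2 KO arrays left (limma, adjusted p = 0.203 for each of the pair, with 3 of the 10 at an unadjusted p under 0.05). The part of muscle and brown fat in the other values was not tested.

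Stromal and epithelial markers are set beside the adipocyte genes because they share the pad. Of 12 genes of adipocyte progenitors 1 rose, Icam1, by 0.94 (SE 0.23, adjusted p = 0.0307), with Wnt2 added by the replicate block (0.64, adjusted p = 0.0414), and the list ran from 9.07 to 9.33 in WT and from 9.33 to 9.90 in KO. Of 9 fibroblast genes 1 rose, Dcn (decorin), by 0.50 (SE 0.11, adjusted p = 0.0257), with Col1a1 added by the replicate block (0.54, adjusted p = 0.0342), all 9 had a higher mean, and the list ran from 12.79 to 12.97 in WT and from 12.92 to 13.52 in KO. Of 4 nerve genes 2 rose, Mbp by 0.69 and Pmp22 by 0.40 (adjusted p 0.0106 and 0.0453, and 0.0623 for Pmp22 with the replicate block). By limma over all probes kept, dimmer Mbp probes differed by 0.99 (adjusted p = 0.0865) and by 0.0039 (adjusted p = 0.991). The nerve list ran from 11.23 to 11.39 in WT and from 11.57 to 11.82 in KO. Of 11 luminal epithelial genes 5 rose, among them Cldn4 by 2.51 (adjusted p = 0.0149), Cdh1 by 0.88 (adjusted p = 0.0143) and Krt18 by 0.67 (adjusted p = 0.0349). The replicate block called 4, without Epcam (adjusted p = 0.0598). The rise was not shared by the whole list, as 8 of the 11 had a higher mean and 3 a lower one. Those lower were Elf5 (-0.35), Prlr (-0.20) and Esr1 (-0.13), and 0 luminal genes were called lower. The luminal list ran from 12.20 to 12.66 in WT and from 12.92 to 13.12 in KO. For nerve and luminal genes the mean of the list did not overlap between genotypes, and for the 10 adipocyte genes it did, at 12.84 to 13.43 in WT and 13.31 to 13.60 in KO. When single arrays were left out, Mbp, Cldn4 and Cdh1 stayed called in all 8 fits. Icam1, Dcn and Krt18 stayed called in 3 of the 8, and Pmp22 and Epcam in 1.

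Counts in the other compartments lay on both sides of the 16.5% of all genes called. Endothelial cells also make Fabp4. Of 12 endothelial genes 0 were called, and the list ran from 10.50 to 10.74 in WT and 10.46 to 10.81 in KO. Macrophages can make Fabp4 and Cfd. Of 11 macrophage genes 0 were called, from 9.92 to 10.20 in WT and 9.69 to 10.44 in KO. Of 11 basal epithelial genes 1 fell, Krt17 by 1.22 (adjusted p = 0.0369), from 11.76 to 12.32 in WT and 11.69 to 12.02 in KO. Of 11 lymph node genes 1 rose, Cd79b by 1.05 (adjusted p = 0.0403, and 0.0744 with the replicate block), and Cd3e and Cd4 fell by 0.60 and 0.43 (adjusted p = 0.0369 and 0.0403, and 0.0596 for Cd4 with the replicate block). When single arrays were left out, Cd3e stayed called in 2 of 8 fits, and Krt17, Cd79b and Cd4 in 1 each. Of 8 milk proteins 0 were called, from 17.06 to 17.39 in WT and 16.93 to 17.47 in KO, although Lalba (-0.45, adjusted p = 0.197) had an adjusted p of 0.0444 with the replicate block. Of 6 milk fat droplet genes 0 were called, from 16.68 to 16.82 in WT and 16.61 to 16.91 in KO. Mfge8, 1 of the 6, read 18.964 on all 8 arrays, because quantile normalization gives equal ranks equal values, so it could not be called. Among the milk proteins Wap shared 18.475 on KO replicates 1, 3 and 4, so counts of 0 among such bright genes are limited in the same way. Where limma called 0 genes, the count at an unadjusted p under 0.05 was 2 for the endothelial list and 0 for the macrophage, milk protein and milk fat droplet lists, and the methods' t-test also called 0 in each after adjustment. The part of each of these lists in the adipocyte values was not tested.

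**Figure D5:**
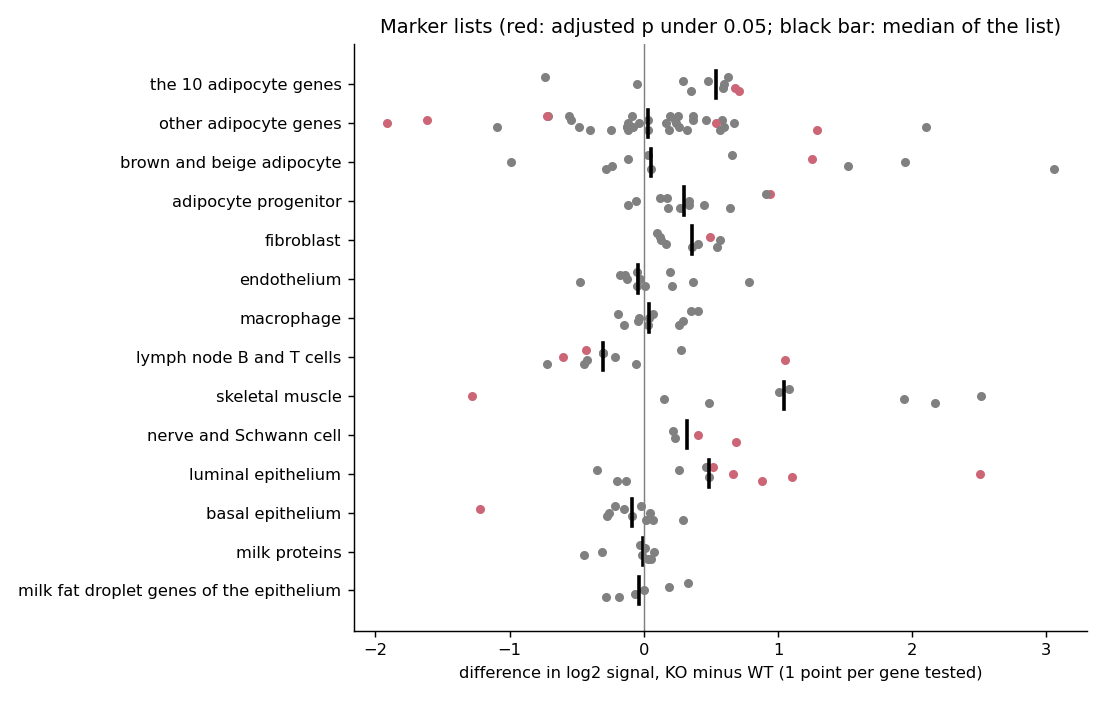
Difference in log2 signal, KO minus WT, of each tested gene of the marker lists, with called genes in red and the median of each list as a black bar. The median was 0.54 for the 10 adipocyte genes and 0.03 for the other adipocyte genes. It was highest for skeletal muscle, at 1.05, and lowest for lymph node B and T cells, at -0.31. It was 0.49 for luminal epithelium, 0.36 for fibroblast, 0.32 for nerve, 0.30 for adipocyte progenitor and -0.04 for endothelium.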

How the data were processed

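RNA from mammary glands of 4 WT and 4 KO dams was labelled with Cy3 and hybridised to 1-colour Agilent mouse 4x44K arrays, as 4 biological replicates per genotype (whether dams were pooled is not given in the sources used here). The authors read the spots with Agilent Feature Extraction (version 10.7, from the submitters' processing notes) and deposited each array's scanner intensity (processed signal, background-subtracted), and a table of log2 values that the authors normalized by quantiles in GeneSpring. That table correlated with each array's own scanner log2 values at r of 0.9985 or more.

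Control spots and spots flagged as outliers (64 to 100 per array) were left out, log2 processed signals were quantile-normalized, and spots of a probe were averaged. Probes were named through RefSeq (GRCm38.p6), 27479 of 41174. A probe was kept if either genotype had it well above background throughout (4 of 4 arrays), and the brightest probe stood for a gene. Each array had 66.8% to 75.3% of its probes well above background, with 0 saturated spots. Precision is limited by having 4 arrays per genotype. KO was tested against WT with limma 3.58.1 (R 4.3.3), with Benjamini-Hochberg adjustment over 14137 genes and a threshold of 0.05. The fit was tested on simulated data.

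Replicates correlated at 0.974 to 0.992. Same-numbered WT and KO arrays deviated together (r from 0.16 to 0.30 for the 4 numbers, against -0.32 to 0.34 and a mean of -0.08 between other numbers), so the number was taken to pair them. The labels do not state this pairing, and some arrays of unlike number correlated as well or better, so it is weakly based. Each gene was centred within its genotype, which ties the mean between other numbers to that of the same numbers. That mean is therefore no separate support for the pairing.

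The alternatives were 75th percentile scaling, normexp (offset 50), no filter, the mean of probes, the authors' table, the replicate block, the position on the slide as a block, the methods' t-test and leaving out each array. Leaving out KO replicates 1 and 3 together was added after seeing the data. Normexp used the median spot signal, because the files used here hold no mean spot signal. Genes and lists were chosen with earlier results of these data known. Named genes were the 10, the families and partners of the 10, up to 5 genes of each other list with the smallest p and markers not above background, and the 10 genes most like the 10 in pattern. A few list genes are not reported here and were left out of the list counts.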

Additional observations from a re-analysis of the deposited data

Results flagged for a closer look

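Of 194 groups of 4 arrays tested (97 genes in each genotype), 14 held an array far from the other 3. Chance flags about 1 in 20 groups. KO replicate 4 was that array for 7 genes and WT replicate 2 for 3. Among the 10 adipocyte genes it was Fabp4 alone, with WT replicate 2 at a log2 signal of 16.80 and the nearest WT array at 17.23. WT replicate 2 was also low for Orm1 (11.83) and Myh1 (3.06). KO replicate 4 was low for Mrc1 (9.61), Krt18 (16.58), Krt17 (10.55), Krt14 (11.14) and Adipor1 (11.71), and high for Glycam1 (18.25) and Slc2a5 (10.07). WT replicate 4 was low for Pdgfra (9.85) and high for Slc2a12 (7.26), and WT replicate 1 was high for Icam1 (6.15). KO replicate 2 was flagged for Wap (18.44) only because the other 3 KO arrays shared 18.475 after quantile normalization, and the gap is small. No cause of these was tested.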

How the results depend on the processing

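Of the 10 adipocyte genes, 9 kept their direction in all 17 alternatives. Pparg turned, to 0.072, with both KO arrays of high muscle signal left out. The call of Cfd was lost under 75th percentile scaling (0.44), under the position block and the methods' t-test (0.68 in each), and without both muscle arrays (0.53). The call of Plin1 was lost with no filter and under the position block and the t-test (0.71 in each), and without both muscle arrays (0.72). The replicate block called Slc2a4 (0.63, adjusted p = 0.0313) and changed no other call among the 10. The cause was not tested. Without single arrays the difference ran from 0.60 to 0.79 for Cfd, 0.33 to 0.68 for Retn, 0.54 to 0.81 for Plin1, 0.48 to 0.76 for Plin4, 0.38 (without KO replicate 2) to 0.82 for Cidec, 0.18 (without WT replicate 2) to 0.36 for Fabp4 and 0.38 (without KO replicate 4) to 0.85 for Slc2a4. The number of the 10 called, 2, became 1 under 75th percentile scaling or no filter and 0 under the position block, the t-test or without both muscle arrays, with 3 of the 10 at an unadjusted p under 0.05 by limma and by the t-test, and ran from 0 to 3 without single arrays. The number of other adipocyte genes called, 5, became 7 with the replicate block, 3 under 75th percentile scaling, 1 with no filter or the t-test, 0 under the position block or without both muscle arrays, and ran from 1 to 6 without single arrays. Over all genes 2331 were called, 1065 of them higher in KO. This became 137 (78 higher) under the position block, 1389 (593 higher) under the t-test, 49 (33 higher) without both muscle arrays, and 519 to 3076 (270 to 1387 higher) without single arrays, where fewer arrays enter the fit. Under 75th percentile scaling the median of 583 genes with a mean log2 signal of at least 14 went from 0.01 to -0.15, so bright genes lose height there.

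Some uncalled genes turned sign. Not all were near 0 in the main fit, where Myh1 differed by 2.51, Myh2 by 1.01, Csn1s2b by -0.31 and Cidea by -0.28. Under 75th percentile scaling the genes that turned were Wap (-0.11), Glycam1 (-0.089), Csn1s1 (-0.071) and Adipor2 (-0.16). Under normexp they were Csn1s1 (-0.013), Cdh13 (0.00498), Adipor2 (-0.00670) and Slc2a10 (0.014), and in the authors' table Cdh13 (0.015). Over the mean of probes they were Ncam1 (-0.070), Adipor2 (-0.11) and Slc2a8 (-0.19). Without both muscle arrays they were Myh1 (-0.48), Myh2 (-0.17), Csn1s2b (0.46), Cidea (0.014), Fabp3 (0.073), Cdh13 (0.015), Fabp2 (0.052), Slc2a8 (-0.11), Rxra (0.079) and Ppara (0.24). Without single arrays the ranges that cross 0 were Myh1 -0.38 to 3.29, Csn1s2b -0.68 to 0.18, Csn1s1 -0.0095 to 0.058, Cdh13 -0.042 to 0.046, Adipor2 -0.078 to 0.088, Slc2a13 -0.11 to 0.011, Slc2a3 -0.091 to 0.12, Slc2a10 -0.13 to 0.077, Slc2a8 -0.11 to 0.18 and Ppara -0.38 to 0.13.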
